A study of Mus musculus with 32 samples.

Results

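The genes described here encode PI3K subunits, an inhibitor of PI3K and phosphatases that act on its lipid product in S49 mouse lymphoma cells. Members were the rows of the deposited log2 table with 9 listed symbols, and all 9 were found among 24538 rows: the catalytic subunits Pik3ca, Pik3cb, Pik3cd and Pik3cg, the regulatory subunits Pik3r1 and Pik3r5, the inhibitor Pik3ip1, and the phosphatases Inpp5d and Inpp4b. Poly(A) RNA was sequenced from 32 libraries, 4 for each of 8 groups, of S49.1 cells, a mouse T lymphoma line in which glucocorticoids cause apoptosis. The 4 S49 (Bcl-2) groups were cells that carried a retroviral neomycin (G418) resistance gene and were additionally transfected with Bcl2, an inhibitor of apoptosis, and that received the synthetic glucocorticoid dexamethasone (dex) at 250 nM or vehicle (control) for 48 h or 24 h. The 4 S49 (Neo) groups were cells with the resistance gene alone, given the same 250 nM dex or vehicle for 48 h or 24 h. Both lines are stable transfectants of 1 parental line and both carry the resistance gene, so the line comparison sets 1 transfected line against another. The labels do not say whether replicates came from separate cultures, so every p-value measures the spread between these libraries, which may be technical.

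Class I PI3K phosphorylates a membrane lipid to make PIP3, the signal that recruits Akt and other kinases and that in lymphocytes carries antigen receptor, costimulatory, cytokine and chemokine signals for survival and growth. Class IA enzymes pair a catalytic subunit (Pik3ca, Pik3cb or Pik3cd) with a regulatory subunit such as Pik3r1, which both stabilizes and restrains its partner, while the class IB catalytic subunit Pik3cg works with Pik3r5 downstream of G protein-coupled receptors. Pik3ip1 is a transmembrane protein that inhibits PI3K in T cells, Inpp5d (SHIP1) removes a phosphate from PIP3 in blood cells, and Inpp4b acts on the lipid that SHIP1 leaves.

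All 9 genes have a single row in the table, and their positions were taken from the mouse annotation of the mm10 (GRCm38) build. Pik3ca lies at chr3:32397671-32468486 (+), Pik3cb at chr9:99036654-99140621 (-), Pik3cd at chr4:149649168-149702571 (-) and Pik3cg at chr12:32173473-32208659 (-). The regulatory genes are Pik3r1 at chr13:101680563-101768217 (-) and Pik3r5 at chr11:68432121-68497849 (+). Pik3ip1 lies at chr11:3330401-3342971 (+), Inpp5d at chr1:87620312-87720507 (+) and Inpp4b at chr8:81342556-82127914 (+). The values are sums over the exons of each gene, so UTRs and coding exons cannot be separated. Only Pik3ip1 shares exonic sequence with another annotated gene: 91 bases, 2.13% of its exon length, lie opposite Gm12592, and the sources do not state whether the counting used strand.

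RefSeq (GRCm38.p6) gave 13 promoter windows for all 9 genes, each from 250 bases before to 50 bases after a transcript start. Both strands were searched for a full glucocorticoid response element (AGAACA, then any 3 bases, then TGTTCT), for the shorter element AGAACA or TGTTCT, which is part of the full one, and for the FOXO element GTAAACA or TGTTTAC. None of the 13 windows held the full element, which occurred in 0.00913% of 32851 windows of all genes. The shorter element occurred in 1 window, of Pik3cd, against 19.0% of all windows, and the FOXO element in 1 window, of Pik3cg, against 3.65%. These are letter matches in short windows and describe no binding. The 3 windows printed below are those of the most induced member in S49 (Bcl-2) cells, with no match, and the 2 that held a match; capitals mark the matched letters, which start at -241 and -92 from the transcript start. The Pik3ip1 window is at chr11:3330481-3330780 (+), the Pik3cd window at chr4:149663267-149663566 (-) and the Pik3cg window at chr12:32208421-32208720 (-), each written 5′ to 3′ on the gene's strand.
Pik3ip1: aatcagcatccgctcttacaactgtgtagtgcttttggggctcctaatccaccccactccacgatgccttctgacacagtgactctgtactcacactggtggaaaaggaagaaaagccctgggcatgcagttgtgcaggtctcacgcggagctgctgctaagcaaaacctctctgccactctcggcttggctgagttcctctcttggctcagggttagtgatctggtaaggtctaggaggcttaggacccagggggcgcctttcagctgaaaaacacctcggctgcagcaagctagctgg
Pik3cd: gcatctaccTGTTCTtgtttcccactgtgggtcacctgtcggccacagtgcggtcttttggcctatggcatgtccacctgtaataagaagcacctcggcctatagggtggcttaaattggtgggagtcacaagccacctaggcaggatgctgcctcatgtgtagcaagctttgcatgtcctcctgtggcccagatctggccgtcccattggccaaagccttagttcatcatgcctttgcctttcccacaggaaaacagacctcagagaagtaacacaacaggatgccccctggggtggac
Pik3cg: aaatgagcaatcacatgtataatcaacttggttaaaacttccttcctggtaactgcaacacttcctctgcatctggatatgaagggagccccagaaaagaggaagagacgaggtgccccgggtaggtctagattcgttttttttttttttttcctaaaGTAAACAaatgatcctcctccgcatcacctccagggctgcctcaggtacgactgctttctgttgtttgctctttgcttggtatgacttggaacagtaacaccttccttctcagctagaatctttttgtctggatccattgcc

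The deposited values are normalized log2 expression levels, and the changes below are differences on that scale. The values run from -2.38 to 20.15 and are exactly 0 in every library for 4872 rows, and their low end is compressed, so changes of low genes are understated. The tests took in 11562 genes whose mean over all libraries reached 3.46 (log2 of 10 + 1), among them 7 of the 9 members. A gene was called when its adjusted p in limma, with Benjamini-Hochberg adjustment over all genes tested, was under 0.05. Read depth per library is unknown from these values. Of the T cell markers 13 of 14 were above the filter, and Cd5 was at the floor (-1.31 to -1.19). Single T cell markers went both ways with dex. In S49 (Bcl-2) cells 6 were called higher and 5 lower at 48 h (33.9% and 35.2% of all genes), and 4 and 7 at 24 h (32.5% and 35.1%). In S49 (Neo) cells 5 were called higher and 5 lower at 48 h (27.3% and 28%), and 2 and 5 at 24 h (25% and 25.5%). The summed level of the T cell list was lower with dex, without overlap, in 3 of the 4 comparisons. Tcf7 led this sum in controls (15.84 to 16.30) and was at 14.51 to 15.83 with dex. In S49 (Bcl-2) cells the sum was 16.76 to 16.93 in dex libraries and 17.29 to 17.40 in control libraries at 48 h. At 24 h it was 17.14 to 17.42 in dex and 17.64 to 17.69 in control libraries. The S49 (Neo) sums were 17.27 to 17.36 in dex and 17.34 to 17.42 in control libraries at 48 h, which overlap, and 17.49 to 17.52 in dex and 17.63 to 17.69 in control libraries at 24 h. Of the markers of other cells, 1 of 6 B cell markers (Blnk), 2 of 9 macrophage and granulocyte markers (Lyz2 and Itgam) and 2 of 9 stromal, endothelial and epithelial markers (Pdgfrb and Pecam1) were above it, while the defining Csf1r and Epcam were at the floor and Ms4a1 was listed at 0 throughout. The summed B cell list was higher with dex in every comparison, for instance 6.90 to 7.41 in S49 (Bcl-2) dex libraries and 5.54 to 5.94 in their controls at 48 h, and 5.43 to 5.56 in S49 (Neo) dex libraries and 4.73 to 5.10 in their controls. The stromal, endothelial and epithelial list, led by Pecam1, was lower with dex in every comparison: 8.54 to 8.90 in S49 (Bcl-2) dex libraries and 10.35 to 10.47 in their controls at 48 h, and 8.87 to 8.97 in S49 (Neo) dex libraries and 10.41 to 10.65 in their controls. The macrophage and granulocyte list lay at 9.81 to 10.09 in S49 (Bcl-2) dex libraries and 9.98 to 10.04 in their controls at 48 h, and at 9.59 to 9.75 in S49 (Neo) dex libraries and 9.76 to 10.01 in their controls. The part of these markers in the results below was not tested. As checks of the labels, the glucocorticoid-induced genes Tsc22d3 and Per1 were higher with dex in all 4 comparisons, by 0.94 to 2.21 and by 1.90 to 2.69. The Bcl2 row was at 10.48 to 11.45 in S49 (Bcl-2) libraries and 7.70 to 8.62 in S49 (Neo) libraries. This row counts reads on the mouse gene, also those of the cells' own copy. The study detected the Bcl-2 protein with an anti-human antibody, and how much of the introduced transcript the row holds is not known.

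One library stands apart. Replicate 3 of the S49 (Bcl-2) dex 24 h group differed from the mean of its 3 partners with an SD of 0.77 over the tested genes, against 0.11 to 0.31 in the other 31 libraries, and the difference followed the GC content of the transcripts (Pearson r = 0.75 across 11320 genes; genes are no replicates of one another). The members moved with it. Pik3ca, with 41.2% GC, was 1.19 lower in replicate 3 than in its partners, where genes of like GC content were lower by a median of 1.15. Pik3r1 (44.9% GC) differed by -0.97, with a like-GC median of -0.51, and Pik3cd (57.0% GC) by 0.45, with a like-GC median of 0.42. This library also widens the shared spread of Pik3ca and Pik3r1 in every comparison, so results that rest on it are given with and without it.

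**Figure D1:**
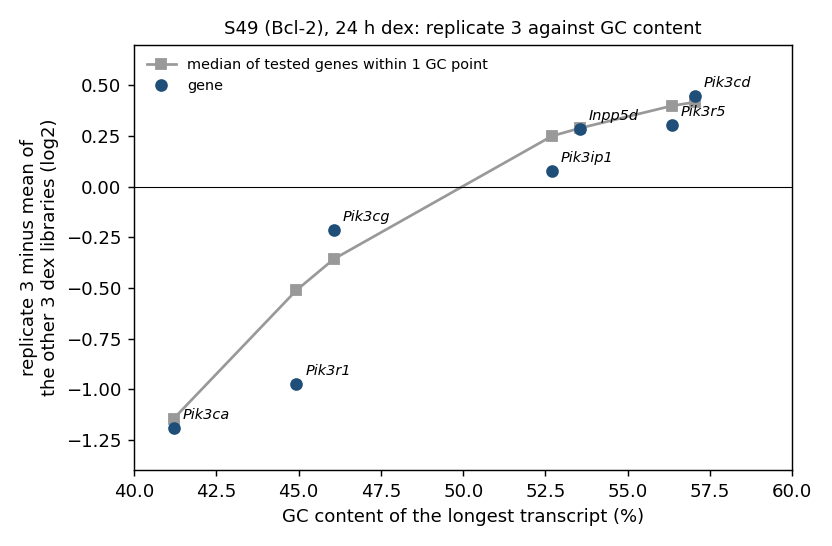
Difference between replicate 3 and the mean of the other 3 libraries of the S49 (Bcl-2) dex 24 h group (y axis, log2) against transcript GC content (x axis, %) for the 7 tested genes (circles), with the median of all tested genes within 1 GC point of each (squares, joined). Pik3ca and Pik3r1, at the low GC end, lie at -1.19 and -0.97, and Pik3cd, at the high end, at 0.45.

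Across the 4 comparisons of dex with control, the same 6 genes changed where a call was made: Pik3cd was lower, and Pik3ip1, Pik3r1, Inpp5d, Pik3cg and Pik3r5 were higher. In S49 (Bcl-2) cells at 48 h, 5 of the 7 tested members were higher (33.9% of all genes tested were) and 1 was lower (35.2%; 69.1% in either direction). At 24 h, 4 were higher (32.5% of all genes) and 1 lower (35.1%; 67.6% in either direction). In S49 (Neo) cells at 48 h, 5 were higher (27.3%) and 1 lower (28%; 55.3% in either direction), and at 24 h likewise 5 (25%) and 1 (25.5%; 50.5% in either direction). The members called in either direction, 5 or 6 of 7, stand near or somewhat above the share of all genes, and so do the members whose 4 dex libraries all lay above or all below the 4 controls: in S49 (Bcl-2) cells 7 at 48 h (73.1% of all genes) and 4 at 24 h (53%), and in S49 (Neo) cells 6 at 48 h (62.5%) and 7 at 24 h (63.5%). At the median their changes were larger than those of a typical gene. This is a description and no test, because the members were chosen with earlier results of these data known. The median absolute change of the 7 was 0.71 in S49 (Bcl-2) cells at 48 h (0.38 over all genes) and 0.49 at 24 h (0.34), and 1.27 in S49 (Neo) cells at 48 h (0.25) and 0.76 at 24 h (0.22). Without replicate 3 of the S49 (Bcl-2) dex 24 h group, Pik3ca was called higher in all 4 comparisons, making 7 of 7 called except in S49 (Bcl-2) cells at 24 h, where Pik3r5 was not; 81.1%, 74.9%, 70.8% and 66.8% of all genes were then called in S49 (Bcl-2) cells at 48 h and 24 h and in S49 (Neo) cells at 48 h and 24 h. In bulk RNA, fewer cells of a kind and less RNA per cell cannot be told apart.

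**Figure D2:**
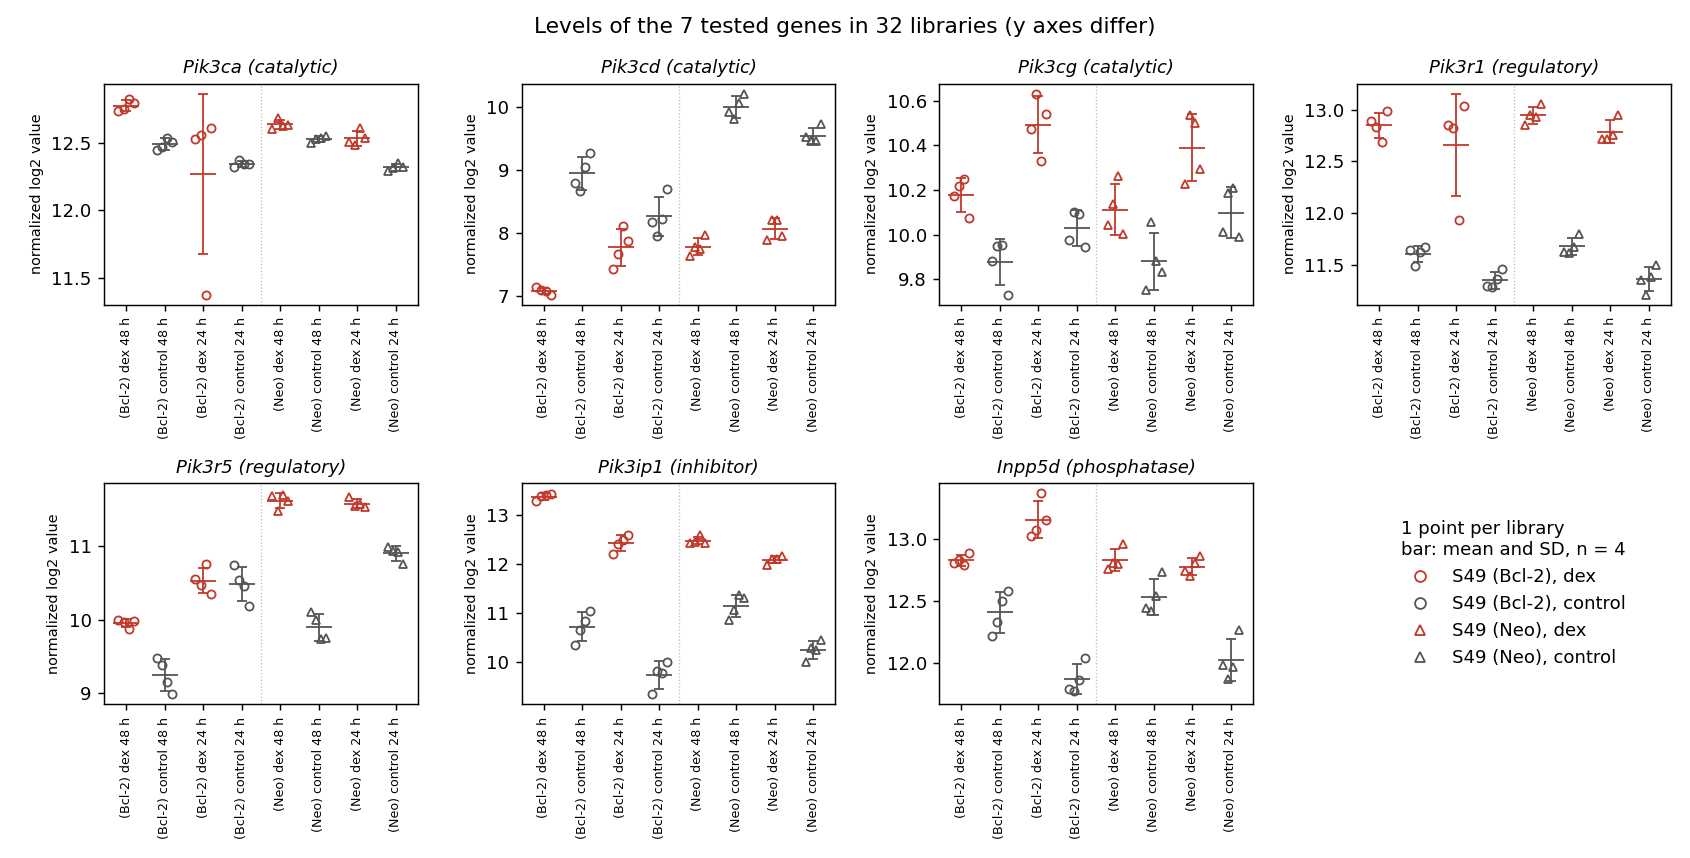
Normalized log2 values (y axes, which differ between panels) of the 7 tested genes in each of 32 libraries (points), by group (x axis), with group means and SDs (bars, n = 4). Pik3ip1 and Pik3r1 lie higher and Pik3cd mostly lower in dex libraries (red) than in control libraries (grey), and the low points of Pik3ca (11.37) and Pik3r1 (11.93) are replicate 3 of the S49 (Bcl-2) dex 24 h group.

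Among the catalytic subunits, Pik3cd, the class IA subunit concentrated in leukocytes, was the one that fell. In S49 (Bcl-2) cells at 48 h its values were 7.14, 7.09, 7.08 and 7.03 with dex, against 8.81, 8.67, 9.05 and 9.27 in control. The S49 (Neo) cells at 48 h gave 7.64, 7.78, 7.75 and 7.98 with dex, against 9.93, 9.81, 10.08 and 10.22 in control. The groups did not overlap in either line, and the dex libraries of S49 (Bcl-2) cells were the lowest of the series. The change at 48 h was -1.86 ± 0.14 (SE; 3.64-fold lower, adjusted p = 3.47e-12) in S49 (Bcl-2) cells and -2.22 ± 0.14 (4.66-fold lower, adjusted p = 1.33e-13) in S49 (Neo) cells.

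At 24 h the fall of Pik3cd differed between the lines. With dex the S49 (Neo) libraries lay at 7.90, 8.22, 8.21 and 7.95, against 9.53, 9.46, 9.46 and 9.73 in control, a change of -1.48 ± 0.14 (2.78-fold lower, adjusted p = 1.11e-09) with no overlap. The S49 (Bcl-2) libraries lay at 7.43, 7.68, 8.11 and 7.88 with dex, against 8.17, 7.96, 8.22 and 8.71 in control. Here the groups overlapped, but only through the 8.11 of replicate 3. The change in these cells was -0.49 ± 0.14 (1.41-fold lower, adjusted p = 0.0038), and -0.60 (adjusted p = 0.000364) without replicate 3.

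Pik3cg, the class IB catalytic subunit, rose slightly with dex. S49 (Bcl-2) cells had values of 10.17, 10.22, 10.25 and 10.07 with dex at 48 h, against 9.88, 9.95, 9.96 and 9.73 in control, and of 10.47, 10.63, 10.33 and 10.54 with dex at 24 h, against 9.98, 10.10, 10.09 and 9.94 in control. These groups did not overlap, and the rises were 0.30 ± 0.08 (adjusted p = 0.00173) at 48 h and 0.46 ± 0.08 (adjusted p = 1.27e-05) at 24 h. The S49 (Neo) values at 48 h were 10.04, 10.14, 10.26 and 10.00 with dex and 9.75, 10.06, 9.88 and 9.83 in control, which overlap, with a rise of 0.23 ± 0.08 (adjusted p = 0.016). This was the largest adjusted p among the members called with dex, and without dex replicate 3 or control replicate 1 of that comparison the adjusted p was 0.0768 or 0.0676. At 24 h Pik3cg rose by 0.29 ± 0.08 in S49 (Neo) cells (adjusted p = 0.00355), with no overlap.

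Pik3ca, the broadly expressed class IA subunit, was not called in any of the 4 comparisons with all libraries. Its values with dex at 48 h were 12.73 to 12.82 in S49 (Bcl-2) cells, against 12.45 to 12.54 in control, and 12.61 to 12.68 in S49 (Neo) cells, against 12.50 to 12.55 in control. At 24 h the S49 (Bcl-2) dex libraries were at 12.53, 12.56, 11.37 and 12.61, against 12.32 to 12.38 in control, and the S49 (Neo) dex libraries at 12.48 to 12.61, against 12.29 to 12.35 in control. Apart from the 11.37 of replicate 3, every dex library lay above every control library of its line and time. The changes were 0.28 ± 0.14 (adjusted p = 0.0813) and -0.08 ± 0.14 (adjusted p = 0.645) at 48 h and 24 h in S49 (Bcl-2) cells, and 0.11 ± 0.14 (adjusted p = 0.55) and 0.21 ± 0.14 (adjusted p = 0.227) in S49 (Neo) cells. Without replicate 3 the SE of Pik3ca dropped to 0.03, and the rises were 0.28 (adjusted p = 2.5e-10) and 0.22 (adjusted p = 2.15e-07) in S49 (Bcl-2) cells and 0.11 (adjusted p = 0.00114) and 0.21 (adjusted p = 1.26e-07) in S49 (Neo) cells. Pik3cb, the other broadly expressed class IA subunit, lay at 0.15 to 0.34 in all 32 libraries, near the floor of the scale, and was not tested.

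Of the regulatory subunits, Pik3r1 rose in all 4 comparisons and Pik3r5 in 3. Pik3r1, which encodes the main class IA regulatory proteins, was at 12.89, 12.83, 12.69 and 12.99 with dex at 48 h in S49 (Bcl-2) cells, against 11.64, 11.49, 11.63 and 11.67 in control. At 24 h the same line gave 12.86, 12.83, 11.93 and 13.03 with dex, against 11.30, 11.28, 11.37 and 11.46 in control. The value of replicate 3, 11.93, is nearest to the controls but above them. The rise of Pik3r1 in S49 (Bcl-2) cells was 1.24 ± 0.13 (2.37-fold, adjusted p = 3.2e-09) at 48 h and 1.31 ± 0.13 (2.48-fold, adjusted p = 1.88e-09) at 24 h, and without replicate 3 the 24 h value was 1.55 ± 0.07 (adjusted p = 1.96e-17). S49 (Neo) cells stood at 12.85, 12.95, 12.93 and 13.05 with dex at 48 h, against 11.62, 11.62, 11.68 and 11.80 in control, and at 12.72, 12.72, 12.76 and 12.95 with dex at 24 h, against 11.35, 11.21, 11.38 and 11.50 in control. The rises there were 1.27 ± 0.13 (2.41-fold, adjusted p = 3.87e-09) at 48 h and 1.43 ± 0.13 (2.69-fold, adjusted p = 5.59e-10) at 24 h, so that all 4 rises lay between 2.37- and 2.69-fold and no groups overlapped.

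Pik3r5, the regulatory partner of Pik3cg, varied with line and time. Its S49 (Neo) values were 11.69, 11.48, 11.69 and 11.61 with dex at 48 h, against 10.10, 9.99, 9.73 and 9.76 in control. At 24 h these cells gave 11.66, 11.55, 11.57 and 11.54 with dex, against 10.99, 10.94, 10.93 and 10.76 in control. The dex levels were alike at both times, and the control level was lower at 48 h. The rises were 1.72 ± 0.11 (3.3-fold, adjusted p = 4.97e-14) at 48 h and 0.68 ± 0.11 (1.6-fold, adjusted p = 4.75e-06) at 24 h, without overlap. S49 (Bcl-2) cells had Pik3r5 at 9.99, 9.97, 9.87 and 9.98 with dex at 48 h, against 9.48, 9.38, 9.15 and 8.99 in control, a rise of 0.71 ± 0.11 (1.63-fold, adjusted p = 1.22e-06). At 24 h the values were 10.55, 10.47, 10.76 and 10.35 with dex and 10.75, 10.54, 10.46 and 10.19 in control, and these interleave. The difference of 0.05 ± 0.11 (95% interval -0.17 to 0.26, adjusted p = 0.714) was not called.

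Pik3ip1, the PI3K inhibitor, had the largest change of the 7 tested members in S49 (Bcl-2) cells at both times. In S49 (Bcl-2) cells at 48 h it was at 13.28, 13.38, 13.40 and 13.42 with dex, against 10.35, 10.66, 10.84 and 11.04 in control. At 24 h the values were 12.21, 12.40, 12.48 and 12.59 with dex, against 9.35, 9.82, 9.79 and 10.01 in control. All dex libraries lay far above all controls of the same time. The rises were 2.65 ± 0.13 (6.26-fold, adjusted p = 1.8e-16) at 48 h and 2.68 ± 0.13 (6.41-fold, adjusted p = 2.96e-16) at 24 h, and only 1.65% and 1.15% of all genes tested changed by more. S49 (Neo) cells had Pik3ip1 at 12.43, 12.44, 12.58 and 12.43 with dex at 48 h, against 10.86, 11.07, 11.36 and 11.30 in control. At 24 h the values there were 11.98, 12.10, 12.10 and 12.16 with dex, against 10.00, 10.29, 10.26 and 10.46 in control. These groups were also apart, with rises of 1.33 ± 0.13 (2.51-fold, adjusted p = 8.75e-10) at 48 h and 1.83 ± 0.13 (3.56-fold, adjusted p = 1.59e-12) at 24 h. The Pik3ip1 promoter window printed above held neither element searched for, which says only that these letters are not in it.

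Inpp5d, which encodes the PIP3 phosphatase SHIP1, rose more at 24 h than at 48 h. At 48 h its values in S49 (Bcl-2) cells were 12.80, 12.83, 12.79 and 12.89 with dex, against 12.21, 12.33, 12.50 and 12.58 in control. At 24 h they were 13.03, 13.07, 13.37 and 13.15 with dex, against 11.79, 11.77, 11.86 and 12.03 in control. Neither pair of groups overlapped, and the gap was wider at 24 h. The rises were 0.42 ± 0.09 (1.34-fold, adjusted p = 0.000104) at 48 h and 1.29 ± 0.09 (2.44-fold, adjusted p = 3.96e-13) at 24 h. S49 (Neo) cells had Inpp5d at 12.76, 12.80, 12.79 and 12.95 with dex at 48 h, against 12.44, 12.41, 12.54 and 12.73 in control, a rise of 0.30 ± 0.09 (1.23-fold, adjusted p = 0.00491). At 24 h it was at 12.74, 12.70, 12.81 and 12.86 with dex, against 11.98, 11.87, 11.97 and 12.26 in control, a rise of 0.76 ± 0.09 (1.69-fold, adjusted p = 2.65e-08). Inpp4b was at -1.82 to -1.77 in all 32 libraries, at the floor, with 13.7% of rows listed lower, and was not tested.

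**Figure D3:**
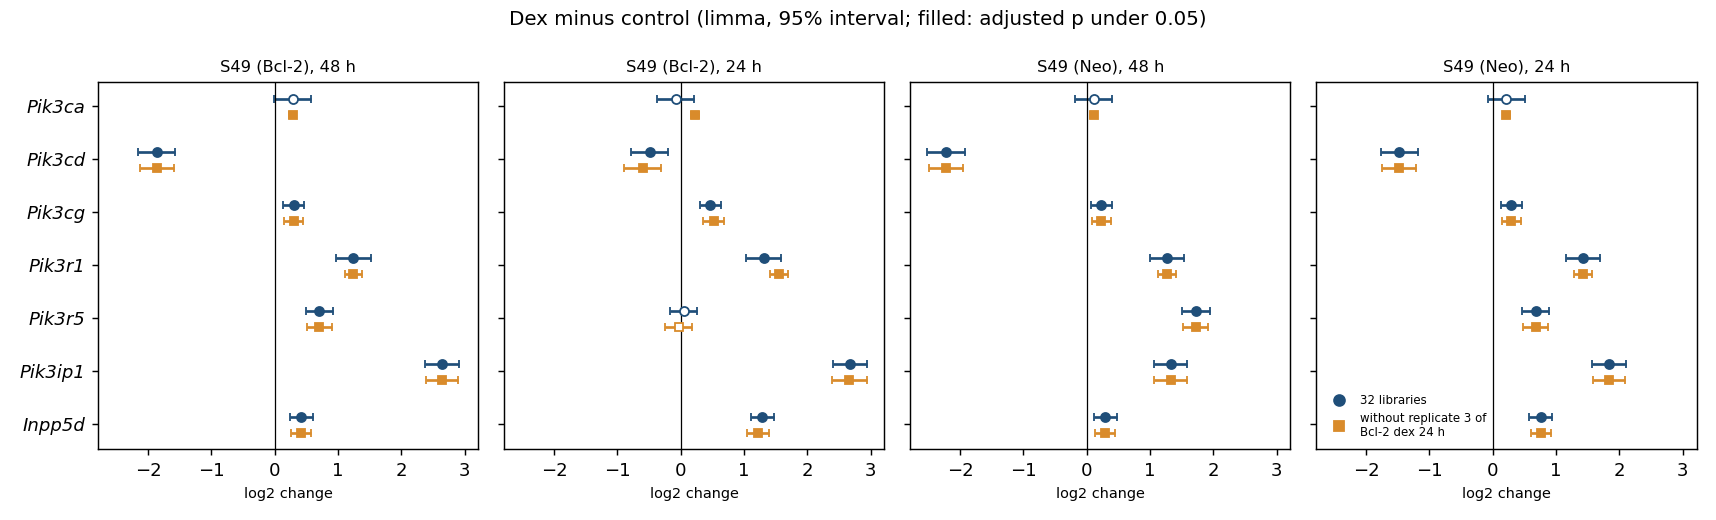
Dex minus control difference (x axis, log2) with its 95% interval for the 7 tested genes (rows) in S49 (Bcl-2) and S49 (Neo) cells at 48 h and 24 h, with all 32 libraries (circles) and without replicate 3 of the S49 (Bcl-2) dex 24 h group (squares). Filled points passed an adjusted p of 0.05; Pik3ip1 lies furthest right in S49 (Bcl-2) cells (2.65 and 2.68) and Pik3cd furthest left at 48 h (-1.86 and -2.22).

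To compare genes with each other, each level was divided by the length of the gene's exons and is given as log2 per kilobase. In S49 (Bcl-2) dex cells at 48 h the order was Pik3ip1 (11.27 ± 0.06), Inpp5d (9.90 ± 0.05), Pik3ca (9.59 ± 0.04), Pik3r1 (9.52 ± 0.12), Pik3r5 (7.48 ± 0.06), Pik3cg (7.10 ± 0.08) and Pik3cd (4.44 ± 0.05; SD, n = 4). Of the neighbours in this order, only Pik3ca and Pik3r1 had overlapping SD ranges. In control cells of that line and time the order per kilobase was Inpp5d (9.48 ± 0.17), Pik3ca (9.31 ± 0.04), Pik3ip1 (8.63 ± 0.29), Pik3r1 (8.27 ± 0.08), Pik3cg (6.80 ± 0.10), Pik3r5 (6.77 ± 0.22) and Pik3cd (6.31 ± 0.27). In that order the SD ranges of neighbours overlapped except between Pik3ca and Pik3ip1 and between Pik3r1 and Pik3cg. Per kilobase, Pik3ip1 was first and Inpp5d second in all 4 dex groups. Their SD ranges overlapped at 24 h, in S49 (Bcl-2) cells (Pik3ip1 10.33 ± 0.16, Inpp5d 10.23 ± 0.15) and in S49 (Neo) cells (Pik3ip1 9.99 ± 0.07, Inpp5d 9.85 ± 0.07), and not at 48 h. Pik3cd was last of the tested members in 7 of the 8 groups and next to last in S49 (Neo) control at 48 h (7.36 ± 0.18, above Pik3cg at 6.80 ± 0.13).

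The dex effects at 48 h and 24 h were then compared within each line. In S49 (Bcl-2) cells 3 of the 7 members differed (38.4% of all genes did), and in S49 (Neo) cells 3 (19.2%). The same genes were called in both: the fall of Pik3cd was deeper at 48 h, with differences of -1.37 ± 0.20 in S49 (Bcl-2) cells (adjusted p = 5.09e-06) and -0.75 ± 0.20 in S49 (Neo) cells (adjusted p = 0.0101). The rise of Pik3r5 was larger at 48 h, with differences of 0.66 ± 0.15 in S49 (Bcl-2) cells (adjusted p = 0.000978) and 1.05 ± 0.15 in S49 (Neo) cells (adjusted p = 1.86e-05). The rise of Inpp5d was smaller at 48 h, with differences of -0.87 ± 0.12 in S49 (Bcl-2) cells (adjusted p = 2.83e-06) and -0.46 ± 0.12 in S49 (Neo) cells (adjusted p = 0.00902). Without replicate 3 these differences in S49 (Bcl-2) cells were -1.26, 0.74 and -0.80, all still called, and that of Pik3r1 became -0.31 (adjusted p = 0.0093), against -0.06 (adjusted p = 0.809) with it. For Pik3ip1 in S49 (Bcl-2) cells the difference was -0.03 (95% interval -0.41 to 0.34, adjusted p = 0.896), while in S49 (Neo) cells the difference was -0.51 ± 0.18, with an adjusted p of 0.0518 that became 0.0246 without replicate 3 and ranged from 0.0212 to 0.124 as single libraries were left out. Without replicate 3, 4 members differed between the times in S49 (Bcl-2) cells (53.3% of all genes) and 5 in S49 (Neo) cells (39.8%), where Pik3ca (-0.11, adjusted p = 0.0374) was the other addition.

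The dex effects of the lines were compared at each time. At 48 h 2 of the 7 members differed (40.8% of all genes did) and at 24 h 4 (19.5%). Pik3ip1 rose more in S49 (Bcl-2) than in S49 (Neo) cells, by 1.32 ± 0.18 (2.5-fold, adjusted p = 1.67e-06) at 48 h and by 0.85 ± 0.18 (1.8-fold, adjusted p = 0.00175) at 24 h. Pik3r5 rose less, with differences of -1.02 ± 0.15 (adjusted p = 4.25e-06) at 48 h and -0.63 ± 0.15 (adjusted p = 0.00395) at 24 h. At 24 h Inpp5d rose more in S49 (Bcl-2) cells, by 0.53 ± 0.12 (adjusted p = 0.00296), and Pik3cd fell less, by 0.98 ± 0.20 (adjusted p = 0.0011); at 48 h their differences were 0.13 (95% interval -0.13 to 0.38) and 0.36 (95% interval -0.06 to 0.77) and were not called. Without replicate 3 the 24 h differences were 0.83 for Pik3ip1, -0.71 for Pik3r5, 0.46 for Inpp5d and 0.87 for Pik3cd, all called, and a difference of 0.18 ± 0.04 for Pik3ca at 48 h was called as well (adjusted p = 0.000469), so that 3 members differed at 48 h (59.5% of all genes) and 4 at 24 h (35.9%). Pik3r1 did not pass the test at either time, with 95% intervals of -0.41 to 0.37 at 48 h and -0.50 to 0.27 at 24 h.

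**Figure D4:**
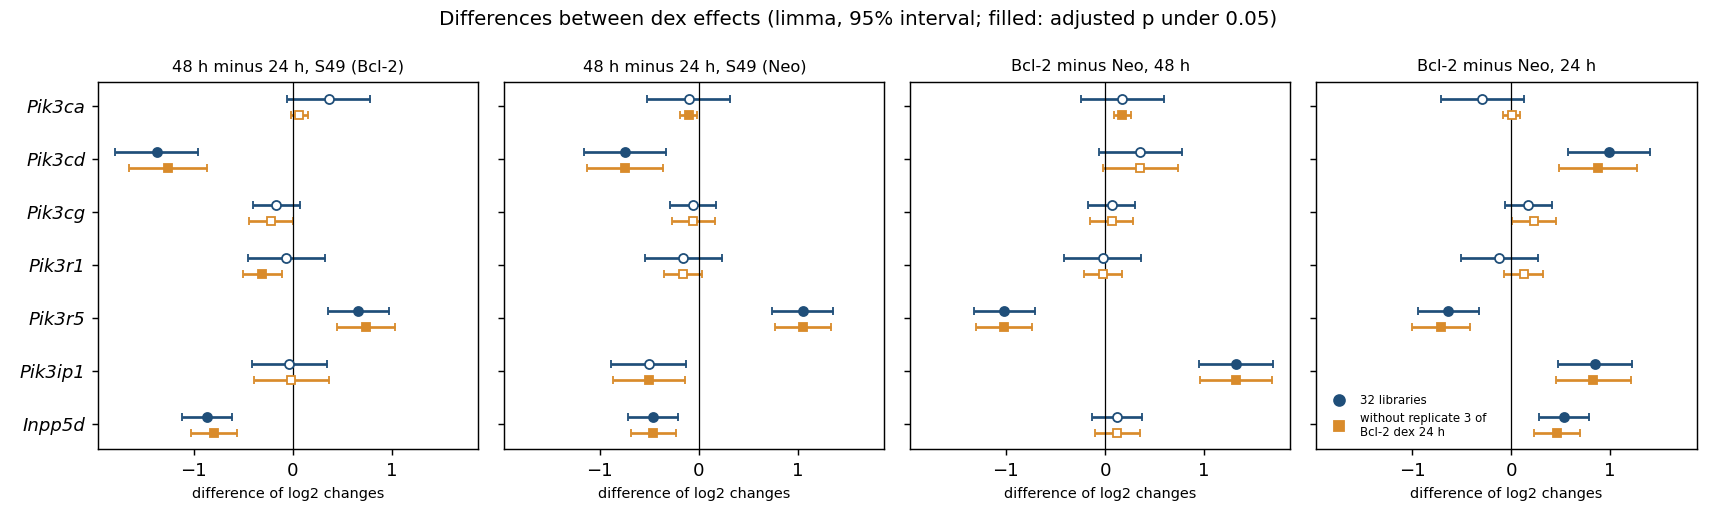
Difference between 2 dex effects (x axis, log2) with its 95% interval for the 7 tested genes (rows), 48 h minus 24 h in each line and S49 (Bcl-2) minus S49 (Neo) at each time, with all 32 libraries (circles) and without replicate 3 of the S49 (Bcl-2) dex 24 h group (squares). Filled points passed an adjusted p of 0.05; Pik3r5 is right of 0 between the times (0.66 and 1.05) and left of 0 between the lines (-1.02 and -0.63).

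Without dex, 3 members differed between the lines at each time, all lower in S49 (Bcl-2) cells, when 14.2% of all genes were lower at 48 h (25.9% called in either direction) and 14% at 24 h (26.9%). The same number was called without replicate 3 of the S49 (Bcl-2) dex 24 h group, against 42.5% and 43.4% of all genes. Pik3cd averaged 8.95 ± 0.27 in S49 (Bcl-2) controls and 10.01 ± 0.18 in S49 (Neo) controls at 48 h (SD, n = 4 each), a difference of -1.06 ± 0.14 (SE; adjusted p = 1.15e-06), and 8.27 ± 0.32 in S49 (Bcl-2) controls and 9.55 ± 0.13 in S49 (Neo) controls at 24 h, a difference of -1.28 ± 0.14 (adjusted p = 4.07e-08). No control library of the Bcl-2 line reached the lowest of the Neo line at the same time. Pik3r5 was lower by the same contrast, -0.65 ± 0.11 (adjusted p = 2.13e-05) at 48 h and -0.42 ± 0.11 (adjusted p = 0.00341) at 24 h. Pik3ip1 differed by -0.42 ± 0.13 at 48 h (adjusted p = 0.0153) and -0.51 ± 0.13 at 24 h (adjusted p = 0.00323), with overlapping groups, and at 48 h its adjusted p was 0.0573 to 0.0971 when Neo control replicate 3 or 4 or Bcl-2 control replicate 1 was left out. For the other 4 tested members the line differences lay between -0.16 and 0.03 and were not called. The controls enter the dex comparisons above, so these are not independent of them.

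The members also moved with culture time in the controls, at 48 h relative to 24 h. Among S49 (Bcl-2) controls 4 of 7 were called (49.5% of all genes) and among S49 (Neo) controls 5 (46.8%). Pik3ip1 was higher at 48 h by 0.98 ± 0.13 (adjusted p = 7e-07) in S49 (Bcl-2) controls and by 0.89 ± 0.13 (adjusted p = 3.6e-06) in S49 (Neo) controls, the direction of its dex change. Inpp5d was higher by 0.54 ± 0.09 in S49 (Bcl-2) controls (adjusted p = 1.06e-05) and 0.51 ± 0.09 in S49 (Neo) controls (adjusted p = 2.67e-05). Pik3cd and Pik3r5 moved against their dex changes: Pik3cd was higher by 0.68 ± 0.14 in S49 (Bcl-2) controls (adjusted p = 0.000252) and 0.46 ± 0.14 in S49 (Neo) controls (adjusted p = 0.0093, and 0.098 after quantile normalization), and Pik3r5 was lower, with changes of -1.24 ± 0.11 in S49 (Bcl-2) controls (adjusted p = 3.08e-09) and -1.01 ± 0.11 in S49 (Neo) controls (adjusted p = 7.09e-08). Pik3cg was called lower in S49 (Neo) controls (-0.22 ± 0.08, adjusted p = 0.0271), a call lost when any of 4 control libraries (24 h replicates 2 and 3, 48 h replicates 1 and 4) was left out, with adjusted p of 0.0712 to 0.101. Without replicate 3 of the S49 (Bcl-2) dex 24 h group, Pik3ca and Pik3r1 were called higher at 48 h in both lines, by 0.15 and 0.25 in S49 (Bcl-2) controls and by 0.21 and 0.32 in S49 (Neo) controls, making 6 called (67.4% of all genes) and 7 called (64.7%).

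Over the 8 group means, which share libraries with the comparisons above and are few, Pik3ip1 ran closest to Pik3r1 (Pearson r = 0.94) and Inpp5d (r = 0.90), and Pik3cd ran against Pik3r1 (r = -0.77). For the 3 members whose group means spanned at least 2 log2 units, the closest genes among 2825 that spanned at least 1 were listed. For Pik3ip1 these were Ctsd (r = 0.996), Inpp5k (r = 0.996) and Tmem203 (r = 0.995), of which Ctsd encodes a lysosomal protease and Inpp5k an inositol phosphatase. For Pik3cd they were Inpp1 (r = 0.989), an inositol phosphatase, Chd7 (r = 0.983), a chromatin remodeler, and Plac8 (r = 0.977). For Pik3r5 they were Pdxk (r = 0.960), pyridoxal kinase, Ruvbl1 (r = 0.955), a DNA helicase subunit, and Ddx19a (r = 0.951), an RNA helicase.

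The rest of the pathway was described by lists from general knowledge, as counts among tested genes with the median change beside that of all genes (in S49 (Bcl-2) cells -0.01 at 48 h and -0.04 at 24 h, in S49 (Neo) cells -0.002 and -0.02). Of all genes tested in S49 (Bcl-2) cells, 33.9% were higher and 35.2% lower at 48 h, and 32.5% and 35.1% at 24 h. The shares in S49 (Neo) cells were 27.3% and 28% at 48 h, and 25% and 25.5% at 24 h. A count near these shares says nothing particular about a list. Of the 5 other PI3K genes tested, 3 were higher and 0 lower with dex at 48 h in S49 (Bcl-2) cells (median 0.24). In S49 (Neo) cells 2 were higher and 0 lower (median -0.03). At 24 h 2 were higher and 1 lower in S49 (Bcl-2) cells (median 0.13) and 2 higher and 0 lower in S49 (Neo) cells (median -0.02). Pik3c3, the class III catalytic subunit of vesicle traffic, was higher by 0.25 in S49 (Bcl-2) cells (adjusted p = 7.15e-05) and 0.26 in S49 (Neo) cells (adjusted p = 7.21e-05) at 48 h, and its partner Pik3r4 by 0.29 in S49 (Bcl-2) cells (adjusted p = 1.12e-05) and 0.19 in S49 (Neo) cells (adjusted p = 0.00217). Pik3r2, another class IA regulatory subunit, was higher by 0.24 in S49 (Bcl-2) cells (adjusted p = 0.0074), with -0.03 in S49 (Neo) cells (adjusted p = 0.785). When the dex effects of the lines were compared at 48 h, none of these 5 genes was called, Pik3r2 included.

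Of 22 other phosphoinositide and inositol phosphatases tested, 12 were higher and 4 lower with dex at 48 h in S49 (Bcl-2) cells (median 0.25), and 7 higher and 4 lower in S49 (Neo) cells (median 0.05). At 24 h 10 were higher and 6 lower in S49 (Bcl-2) cells (median 0.10), and 11 higher and 4 lower in S49 (Neo) cells (median 0.15). Inpp5a, which acts on soluble inositol phosphates, was higher at 48 h by 1.44 in S49 (Bcl-2) cells (adjusted p = 4.15e-21) and 1.28 in S49 (Neo) cells (adjusted p = 6.9e-20), and Mtmr1, a myotubularin, by 1.35 in S49 (Bcl-2) cells (adjusted p = 6.34e-11) and 1.28 in S49 (Neo) cells (adjusted p = 3.2e-10). Inpp5k was higher by 0.98 in S49 (Bcl-2) cells (adjusted p = 2.34e-14) and 0.37 in S49 (Neo) cells (adjusted p = 6.05e-06).

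Of 10 phosphoinositide kinases tested, 2 were higher and 5 lower at 48 h in S49 (Bcl-2) cells (median -0.13). In S49 (Neo) cells 2 were higher and 6 lower (median -0.23). At 24 h 3 were higher and 4 lower in S49 (Bcl-2) cells (median -0.03) and 2 higher and 4 lower in S49 (Neo) cells (median -0.10). Pip5k1c, which makes the PI3K substrate, was higher at 48 h by 0.99 in S49 (Bcl-2) cells (adjusted p = 8.67e-13) and 0.90 in S49 (Neo) cells (adjusted p = 1.15e-11), and Pi4kb, a kinase of the Golgi, by 0.46 in S49 (Bcl-2) cells (adjusted p = 3.59e-08) and 0.31 in S49 (Neo) cells (adjusted p = 2.72e-05), while Pip4k2b was lower, with changes of -0.45 in S49 (Bcl-2) cells (adjusted p = 2.93e-09) and -0.52 in S49 (Neo) cells (adjusted p = 2.56e-10). Of 11 genes that feed PI3K in T cells, 1 was higher and 8 lower at 48 h in S49 (Bcl-2) cells (median -0.54), and 1 higher and 7 lower in S49 (Neo) cells (median -0.26). The counts at 24 h were the same, with medians of -0.58 in S49 (Bcl-2) cells and -0.32 in S49 (Neo) cells. Trat1, an adaptor of the T cell receptor complex, changed at 48 h by -1.73 in S49 (Bcl-2) cells (adjusted p = 3.48e-09) and -1.20 in S49 (Neo) cells (adjusted p = 3.31e-06), Irs2, the insulin receptor substrate, by -1.37 in S49 (Bcl-2) cells (adjusted p = 1.05e-10) and -1.41 in S49 (Neo) cells (adjusted p = 9.34e-11), and Gnb1, a G protein beta subunit, by -0.37 in S49 (Bcl-2) cells (adjusted p = 1.24e-11) and -0.26 in S49 (Neo) cells (adjusted p = 1.94e-08).

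Downstream, 5 of 19 PIP3 effectors and Akt-arm genes were higher and 10 lower at 48 h in S49 (Bcl-2) cells (median -0.14), and 6 higher and 7 lower in S49 (Neo) cells (median -0.08). Of these genes, 24 h gave 8 higher and 5 lower in S49 (Bcl-2) cells (median 0.03) and 7 higher and 6 lower in S49 (Neo) cells (median -0.0087). Foxo1, the transcription factor that Akt keeps out of the nucleus, was higher by 1.69 in S49 (Bcl-2) cells (3.23-fold, adjusted p = 5.84e-16) and 1.55 in S49 (Neo) cells (2.93-fold, adjusted p = 6.27e-15) at 48 h. Prex1, a PIP3-responsive activator of Rac, was higher at 48 h by 0.77 in S49 (Bcl-2) cells (adjusted p = 1.27e-07) and 0.31 in S49 (Neo) cells (adjusted p = 0.0103). Of 10 Foxo target genes of T cells tested, 2 were higher and 6 lower at 48 h in both lines, with medians of -0.66 in S49 (Bcl-2) cells and -0.38 in S49 (Neo) cells, and at 24 h 3 were higher and 3 lower in S49 (Bcl-2) cells (median -0.17) and 3 higher and 4 lower in S49 (Neo) cells (median -0.24). Sesn1, a stress-responsive inhibitor of mTORC1, was higher at 48 h by 2.81 in S49 (Bcl-2) cells (7.02-fold, adjusted p = 8.26e-21) and 2.21 in S49 (Neo) cells (4.63-fold, adjusted p = 2.32e-18), while Rag1, the antigen receptor recombinase, was lower, with changes of -2.25 in S49 (Bcl-2) cells (adjusted p = 1.01e-14) and -0.42 in S49 (Neo) cells (adjusted p = 0.0079). Irs2 stands in this list too. Pik3ip1 also belongs to it but, as a member, was left out of its counts and medians. It rose at 48 h by 2.65 in S49 (Bcl-2) cells and 1.33 in S49 (Neo) cells.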

How the data were processed

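Poly(A) RNA libraries were sequenced with paired ends. Per the study's methods and the submitters' processing notes, the authors trimmed the reads, aligned them to mm10 with STAR, counted them per gene with featureCounts and normalized them with DESeq2; annotation and strand setting are not given in the sources used here. The authors deposited 1 table of normalized log2 values, whose exact transform is not stated; negative floors and compressed low values set the scale described above, and no counts or depths were used. All 32 columns were matched to samples by name (0 columns without a sample), and no libraries were identical. 26 symbols had been turned into dates and none was a member.

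limma 3.58.1 (R 4.3.3) was fitted to all 32 libraries with 1 mean per group, and eBayes with trend, on genes with a mean of at least log2(10 + 1); 12 contrasts were tested, with Benjamini-Hochberg adjustment over 11562 genes at 0.05. The fitting code was tested on simulated data. Intervals are 95%. Alternatives were a stricter filter or none, only the 16 libraries of a line, the replicate block, quantile and median scaling, arrayWeights, robust eBayes, an unadjusted p of 0.01 and leaving out each replicate. To look for pairs, the group mean of each gene was subtracted from each library, and the remainders were correlated. These remainders of same-numbered dex and control libraries correlated by 0.20 to 0.22 in S49 (Bcl-2) cells at 24 h, and by 0.03 to 0.48 elsewhere. The labels do not say whether a shared number marks a pair.

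Named were the 9 members, the 3 genes of smallest p with dex at 48 h in S49 (Bcl-2) cells from each list, 5 check genes, and the closest patterns; some genes that this rule names are not reported here. The list of phosphatases holds 24 genes in the table, 2 of them under older symbols. The members and lists were chosen with earlier results of these data known. Promoter sequences were credited to RefSeq and protein sequences were not used here. GC content came from the longest transcript and was available for 97.9% of genes tested.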

Additional observations from a re-analysis of the deposited data

Results flagged for a closer look

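Among 56 sets of 4 libraries checked (7 genes in 8 groups), 2 held a library far from its partners, and chance alone marks about 1 set in 20. Pik3ca was at 11.37 in replicate 3 of the S49 (Bcl-2) dex 24 h group, with the other 3 libraries at 12.53 to 12.61. Pik3ip1 was at 12.58 in replicate 3 of the S49 (Neo) dex 48 h group, with the others at 12.43 to 12.44, a gap that is small beside the dex change.

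Of 28 tests of a difference between dex effects, 12 passed an adjusted p of 0.05 in limma. Between 48 h and 24 h in S49 (Bcl-2) cells these were Pik3cd (-1.37), Pik3r5 (0.66) and Inpp5d (-0.87), and in S49 (Neo) cells Pik3cd (-0.75), Pik3r5 (1.05) and Inpp5d (-0.46). Between S49 (Bcl-2) and S49 (Neo) cells they were Pik3r5 (-1.02) and Pik3ip1 (1.32) at 48 h, and Pik3cd (0.98), Pik3r5 (-0.63), Pik3ip1 (0.85) and Inpp5d (0.53) at 24 h. Each is computed from dex and control group means, and the 2 sides did not weigh alike. In S49 (Neo) cells at 24 h and 48 h Pik3r5 averaged 11.58 and 11.62 with dex, and 10.90 and 9.90 in control. Inpp5d averaged 12.78 and 12.83 with dex there, and 12.02 and 12.53 in control. For Pik3ip1 at 48 h the lines, S49 (Bcl-2) first, averaged 13.37 and 12.47 with dex, and 10.72 and 11.14 in control.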

How the results depend on the processing

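Over the settings other than leaving out a library, 653 of 700 gene values kept their direction and side of the threshold; 1 lost its call, 32 gained one and 14 changed sign. In the 4 dex comparisons 242 of 252 kept both, none lost a call, 7 gained one (all Pik3ca) and 3 changed sign. Leaving out 1 library, 918 of 959 values kept both, 9 lost a call, 14 gained one and 18 changed sign. No scaling moved the median of all genes by over 0.1.

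The number of members called moved by over 1.5 times with arrayWeights to 5 (3 in the report) for 48 h against 24 h in S49 (Bcl-2) cells and to 4 (2 in the report) for the lines at 48 h, and to 5 for 48 h against 24 h in S49 (Neo) cells with only the 16 libraries of that line or, chosen after seeing the data, without replicate 3 of the S49 (Bcl-2) dex 24 h group. The calls over all genes rose in these settings too. With arrayWeights 6531 of 11562 genes were called between the times in S49 (Bcl-2) cells (4437 in the report). Between the lines at 48 h arrayWeights called 7371 (4715 in the report). Between the times in S49 (Neo) cells 4762 of 11515 were called with the 16 libraries and 4602 of 11561 without replicate 3 (2225 of 11562 in the report). Sign changes, none of a value called with all libraries, had quantile normalization giving 0.0256 for Pik3ca with dex in S49 (Bcl-2) cells at 24 h, 0.008 for Pik3r1 and 0.21 for Pik3ip1 between the times in that line, 0.13 for Pik3r1 between the lines at 48 h and 0.0023 for Pik3cg between 48 h controls. Median centring gave 0.0212 for the same Pik3r1 and 0.0065 for the same Pik3cg difference. arrayWeights gave 0.21 for Pik3ca and -0.057 for Pik3r5 with dex in S49 (Bcl-2) cells at 24 h, 0.0107 for Pik3ip1 between the times, 0.0094 for Pik3ca and 0.12 for Pik3r1 between the lines at 24 h, and 0.0449 and 0.0505 for the same Pik3r1 and Pik3cg differences. The cause was not tested.

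Leaving out 1 library at a time, the members called ranged from 6 to 7 and 5 to 6 in S49 (Bcl-2) cells at 48 h and 24 h, from 5 to 7 and 6 to 7 in S49 (Neo) cells, from 3 to 4 and 3 to 5 between the times in S49 (Bcl-2) and S49 (Neo) cells, from 2 to 3 and 4 to 4 between the lines at 48 h and 24 h, from 2 to 3 and 3 to 3 between the controls of the lines, and from 4 to 6 and 4 to 7 with control time. Values that crossed 0 were Pik3ca (-0.19 to 0.22) and Pik3r5 (-0.0528 to 0.13) with dex in S49 (Bcl-2) cells at 24 h, Pik3r1 (-0.31 to 0.0591) and Pik3ip1 (-0.16 to 0.10) between the times in that line, Pik3cg (-0.11 to 0.0007) between the times in S49 (Neo) cells, Pik3ca (-0.41 to 0.006) and Pik3r1 (-0.24 to 0.13) between the lines at 24 h, Pik3r1 (-0.0687 to 0.0294) between the lines at 48 h, and, in controls, Pik3r1 (-0.0595 to 0.0362) at 24 h and Pik3cg (-0.0441 to 0.0577) at 48 h. Losses are named in the report.

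With the replicate block, 5 members were called in S49 (Bcl-2) cells at 24 h, as without it; the counts of called members stayed within 1.5 times, and the block added calls for Pik3ip1 between the times in S49 (Neo) cells (-0.51, adjusted p = 0.00139 or, within line and time, 0.00596), Inpp5d between the controls at 24 h (-0.16, adjusted p = 0.0415), and control time of Pik3cg in S49 (Bcl-2) cells (-0.15, adjusted p = 0.0341) and Pik3r1 in S49 (Neo) cells (0.32, adjusted p = 0.0292). It changed no other call. After subtraction of group means, same-numbered dex and control libraries correlated by 0.20 to 0.22 in S49 (Bcl-2) cells at 24 h. The mean between different numbers was -0.08 there, and 4 of 4 correlated best with their own number. The same-number values were 0.08 to 0.33 in S49 (Bcl-2) cells at 48 h. In S49 (Neo) cells they were 0.03 to 0.44 at 48 h and 0.05 to 0.48 at 24 h. Means between different numbers were -0.05, -0.08 and -0.09 in these cases, and 3 of 4 correlated best with their own number in each. This is a hint from the data and not the design. Depth is unknown, so the counting error of Pik3cb, near the floor, and of Inpp4b, at the floor, cannot be given, and nothing is said of whether they are transcribed.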
